A study of Mus musculus with 96 samples.

Results

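The mixed cells were 8 of 48 single mouse embryonic stem (ES) cells in which the endoderm regulator Gata6 and the pluripotency gene Pou5f1 were both read. They were chosen by 2 values: Gata6 at 20 CPM or more (counts per 1000000 gene reads of the cell), and at least 10 reads of Pou5f1. The 35 cells with Gata6 under 20 CPM are called naive here, as the working name of a set, and the 5 cells with Gata6 at 20 CPM or more but fewer than 10 Pou5f1 reads are called endoderm-only. No cell lay near either threshold. The lowest Gata6 among cells above the threshold was 82.8 CPM, in mixed cell 27, and the highest among naive cells was 1.36 CPM. The lowest Pou5f1 among mixed cells was 37 reads, in cell 33, and the highest among endoderm-only cells was 4 reads, in cell 32.

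The study asked how gene expression varies among ES cells kept in serum. All cells were of the J1 line, at passage 12 to 20, and grew without feeder cells in medium with fetal bovine serum and leukaemia inhibitory factor (LIF). They were caught singly on a C1 microfluidic chip, and SMARTer cDNA was made into Nextera XT libraries that were read on 2 lanes of an Illumina HiSeq each, giving 96 lane libraries. All 48 cells form 1 group in the labels, with no separate culture named, so the sets are drawn from the data, a cell is not a replicate, and no test of a difference between the sets was made. The values below are descriptions of these cells. Total reads per cell had a median of 8020622 in mixed cells, 8509782 in endoderm-only cells and 6419369 in naive cells. At a common depth of 4408953 reads, a median of 7644 genes in mixed cells, 6377 in endoderm-only cells and 7366 in naive cells had at least 5 reads; the part of this difference in the results was not tested.

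The primitive endoderm is the layer of the early embryo that splits from the pluripotent epiblast and gives rise to parietal and visceral yolk sac endoderm. Gata6 sits at the head of its regulators and is followed by Gata4, Sox17 and Sox7, while Nanog, Sox2 and Pou5f1 keep the epiblast state. Parietal endoderm lays down a thick basement membrane of type IV collagen and laminin. Some ES cells in serum enter an endoderm-like state, and cells with reads of genes of both programs are the subject here. Whether any capture held more than a single cell was not tested. Such a capture cannot be told apart here from a cell that holds both programs.

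Values of single cells follow in the order 2, 4, 6, 13, 27, 33, 40 and 41 for mixed cells and 3, 22, 25, 32 and 38 for endoderm-only cells. The values that chose the cells come first. Gata6 was at 226, 237, 231, 401, 82.8, 294, 254 and 156 CPM in the mixed cells and at 390, 500, 357, 401 and 617 CPM in the endoderm-only cells. Pou5f1 was at 20.2, 63.4, 32.2, 35.7, 17.5, 4.29, 39.1 and 26.7 CPM in the mixed cells, against a lowest value of 3.13, a median of 87.6 and a highest of 169 CPM in naive cells. Every mixed cell lay below the naive median of Pou5f1, and cell 13 was the 1 mixed cell within the endoderm-only range of Gata6, which began at 357 CPM.

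In 2 cells the rest of the pluripotency genes went against the set that Pou5f1 gave them. The mean log2(CPM + 1) of 16 core pluripotency genes, Pou5f1 among them, was 2.20 in mixed cell 33, while the other 7 mixed cells lay between 5.86 and 7.35. In endoderm-only cell 32 it was 6.15, while the other 4 endoderm-only cells lay between 2.19 and 3.45. Cell 33 had 0.464 CPM of Nanog, 0.116 of Sox2 and 1.04 of Tdgf1, the Nodal co-receptor of pluripotent cells. Cell 32 had 39.9 CPM of Nanog, 17.3 of Sox2 and 985 of Tdgf1. Both cells stayed in the sets that the rule gave them, and results that turn on them are also given without both, a choice made after these values were seen.

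**Figure D1:**
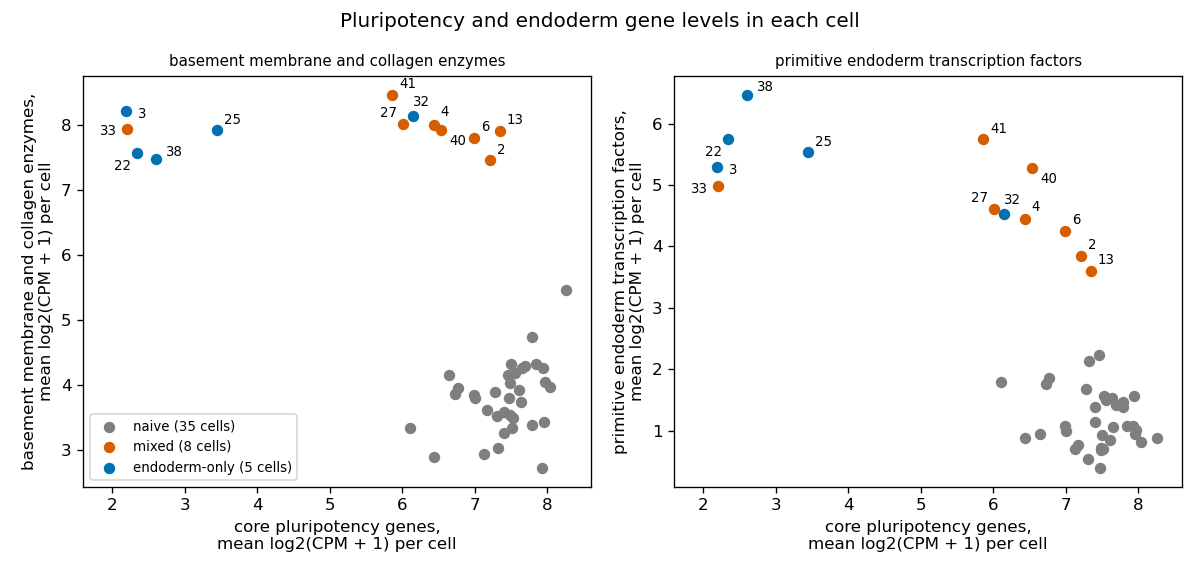
Each point is a cell, numbered where Gata6 was at 20 CPM or more. The horizontal axis is the mean log2(CPM + 1) of 16 core pluripotency genes, Pou5f1 among them. The vertical axes are the same mean of 19 basement membrane and collagen enzyme genes and of 11 primitive endoderm transcription factors, Gata6 among them. Pou5f1 and Gata6 chose the cells, so part of the separation of the sets is built in. Cell 33 lies at 2.20 on the horizontal axis among endoderm-only cells, and cell 32 lies at 6.15 among mixed cells.

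Basement membrane genes were as high in mixed as in endoderm-only cells. Of 19 tested genes of the basement membrane and of collagen-processing enzymes, 14 had a mixed median at least 2 log2 units above the naive median and 2 a median as far below it. Over all 11746 genes tested, 1108 were that much higher (9.43%) and 592 that much lower (5.04%). Col4a1, a chain of type IV collagen, was at 2071, 1479, 2427, 2642, 2696, 2681, 2047 and 2778 CPM in the mixed cells. In endoderm-only cells it was at 4336, 1325, 2532, 2577 and 1704 CPM, and in naive cells its lowest, median and highest values were 0.760, 2.82 and 55.8 CPM. Mixed and endoderm-only cells thus overlapped, and every naive cell lay below both. The mixed minus naive difference of Col4a1 medians was 9.37 log2 units, and the position of the mixed median on a scale from 0 at the naive to 1 at the endoderm-only median was 1.00.

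Lama1, the laminin alpha chain of this membrane, was at 640, 2565, 2375, 1369, 1346, 3106, 1624 and 2052 CPM in mixed cells. Endoderm-only cells had 4468, 2739, 2754, 1584 and 2008 CPM, and the highest naive cell had 138 CPM. Cells 2, 13 and 27 lay below every endoderm-only cell. Lamb1 and Lamc1, its partner chains, had positions of 0.89 and 0.99. Sparc, a collagen-binding matrix protein, was between 5768 and 13608 CPM in mixed cells and at most 1729 CPM in naive cells. The collagen chaperone Serpinh1 and the collagen prolyl hydroxylase P4ha2 stood at positions of 0.93 and 0.97. The median position of the 13 list genes that were at least 2 log2 units higher in endoderm-only than in naive cells was 0.99, and 0.92 without cells 32 and 33.

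The 2 genes of the list that were lower than in naive cells were Fn1 and Col18a1. Fn1, the matrix protein fibronectin, was at 81.7, 2.25, 148, 43.2, 67.2, 0.232, 5.70 and 15.0 CPM in mixed cells, against a naive median of 147 CPM. In endoderm-only cells it was at 0.267, 15.0, 0.118, 56.7 and 1.29 CPM. Mixed cells therefore ran from naive levels down to near 0. Col18a1, the collagen that gives rise to endostatin, had a mixed median of 16.7 CPM between a naive 84.6 and an endoderm-only 0.135 CPM. Without cells 32 and 33 neither gene was 2 log2 units below naive, at -1.74 for Fn1 and -1.65 for Col18a1.

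Parietal endoderm genes gave the same picture, though Sparc and Lama1 are in both lists. Of 16 tested, 15 were at least 2 log2 units higher in mixed than in naive cells, and 14 had a position, with a median of 0.90. F3, the coagulation tissue factor, was at 843, 836, 466, 1772, 744, 1814, 879 and 200 CPM in mixed cells, and the highest naive cell had 39.9 CPM. Srgn, the secretory granule proteoglycan serglycin, was at 429, 271, 252, 741, 40.4, 915, 630 and 1853 CPM, against at most 3.18 CPM in a naive cell. The cathepsin Ctsh ran from 17.4 to 2669 CPM in mixed cells and reached 2.51 CPM in the highest naive cell. All 3 genes separated every mixed from every naive cell. The keratins Krt8 and Krt18 were higher by median as well, by 7.97 and 5.77 log2 units, but 2 naive cells had more Krt8 than the lowest mixed cell.

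Over all genes tested, 32 had every mixed cell above every naive cell (0.272%) and 0 had every mixed cell below every naive cell (0%). A gene at 0 CPM in any naive cell cannot have a mixed cell below it, so these counts do not compare the directions. Gata6, which chose the cells, is 1 of the 32, and another is a row with a date-like name. Besides collagens, laminins and their enzymes, the 10 with the largest difference held the reticulophagy receptor Fam134b, Glipr1 and the phospholipid-binding Anxa5. Fam134b was between 134 and 631 CPM in mixed cells and at most 18.2 CPM in naive cells. Anxa5 was between 204 and 2037 CPM against at most 143 CPM.

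The transcription factors of the primitive endoderm were less even. Leaving out Gata6, which chose the cells, 5 of 10 tested were at least 2 log2 units higher in mixed than in naive cells and 0 were lower, and the 7 with a position had a median of 0.70. Gata4 was at 0.502, 75.1, 63.4, 86.0, 82.6, 47.6, 143 and 203 CPM in mixed cells. In endoderm-only cells it was at 360, 228, 381, 16.0 and 301 CPM, so that only cell 32 fell into the range of the mixed cells. Cell 2 had 1799 reads of Gata6 and 4 of Gata4. At least 5 Gata4 reads were found in 7 of 8 mixed cells (87.5%, exact 95% interval 47.3 to 99.7%) and in 1 of 35 naive cells (2.86%, 0.0723 to 14.9%). These intervals cover error in counting cells only, treat each cell as a separate draw, and are no test between the sets.

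Sox17, which acts with Gata6 in endoderm, was at 4.52, 0, 0.133, 26.0, 3.14, 104, 13.6 and 12.4 CPM in mixed cells. Endoderm-only cells had 86.0, 34.0, 21.0, 2.32 and 15.1 CPM, and no naive cell was above 0.470 CPM. At least 5 reads of it were found in 6 of the mixed cells, while cells 4 and 6 had 0 and 1 read. Sox7, its relative, was at 0, 1.35, 11.6, 0.334, 24.1, 0.116, 278 and 93.8 CPM, against 97.7, 261, 29.7, 0 and 35.8 CPM in endoderm-only cells. The order of mixed cells differed between the pair: cell 33 had the highest Sox17 and 1 read of Sox7, and cell 40 the highest Sox7 and 110 reads of Sox17. Foxa2, a factor of visceral and definitive endoderm, had at least 5 reads in 3 of 8 mixed cells, with 114 CPM in cell 33 and at most 9.67 CPM in the others.

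Of the 5 factors Gata6, Gata4, Sox17, Sox7 and Foxa2, all had at least 5 reads in 1 of 8 mixed cells, cell 41, and in 3 of 5 endoderm-only cells. Gata6 chose the cells, and of the other 4 every mixed cell had at least 2 at that count and a naive cell at most 1. Sfmbt2, a Polycomb protein needed in extraembryonic tissue, was at 22.0, 1036, 1165, 271, 272, 472, 341 and 563 CPM in mixed cells. Tcf7l2, a Wnt effector, was between 165 and 928 CPM there, with naive medians of 2.01 CPM for Sfmbt2 and 11.2 CPM for Tcf7l2. Some naive cells overlapped them, up to 412 CPM of Sfmbt2 and 239 CPM of Tcf7l2.

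Receptors and endocytic proteins of the primitive endoderm were higher in 7 of 13 tested and lower in 0. The platelet-derived growth factor receptor Pdgfra was at 94.0, 218, 131, 77.6, 8.68, 161, 196 and 99.9 CPM in mixed cells, and the highest naive cell had 3.39 CPM. The clathrin adaptor Dab2 was between 110 and 1606 CPM, against at most 2.52 CPM. Both separated the mixed from the naive cells, and both overlapped endoderm-only cells. Lrp2, the scavenger receptor megalin, was at 13.7, 329, 212, 247, 242, 109, 362 and 418 CPM with a position of 0.91. Its partner Cubn was at 0.377, 157, 1.73, 0, 33.5, 96.5, 0 and 1098 CPM, so its high median rests on 4 cells. Fgfr2, a receptor for the fibroblast growth factor that drives this lineage, had at least 5 reads in 2 mixed cells, at 41.1 and 61.3 CPM, against an endoderm-only median of 23.5 CPM.

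**Figure D2:**
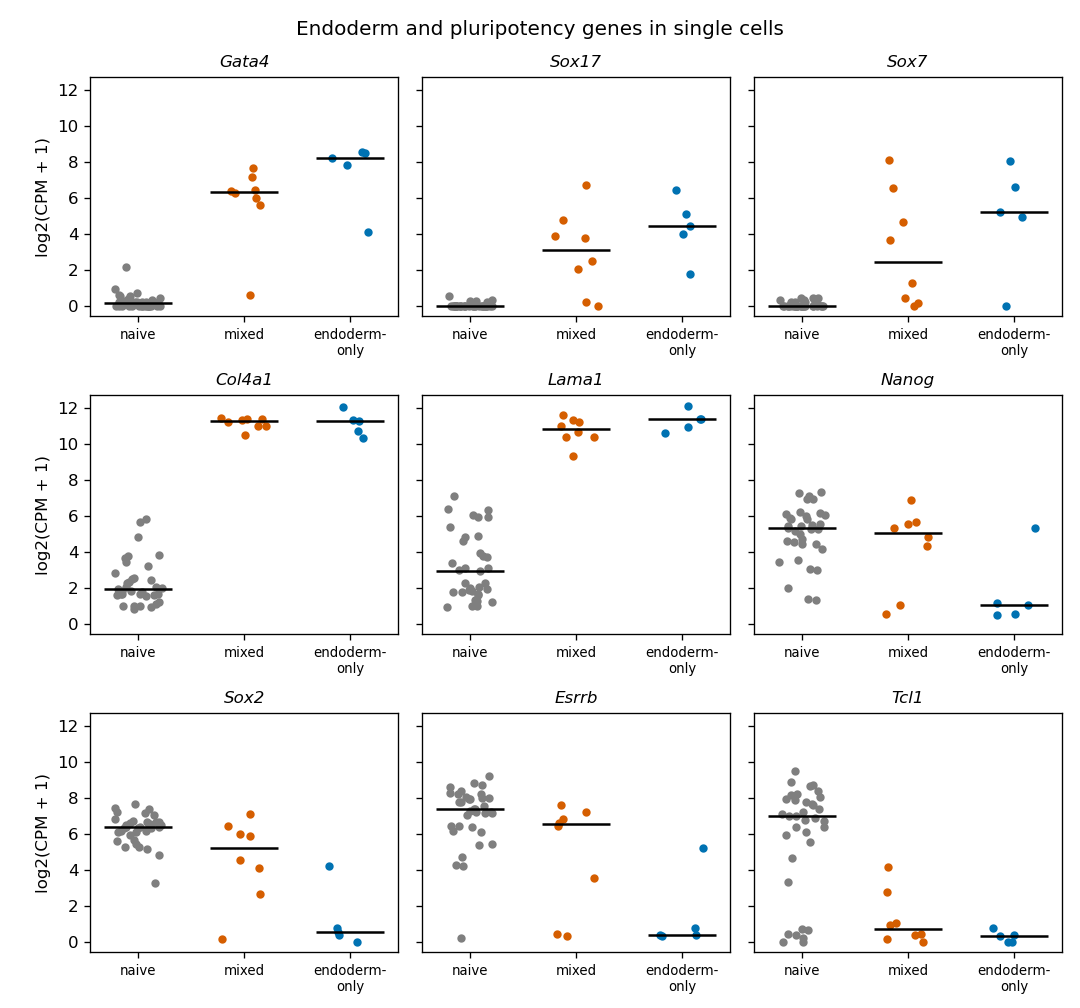
Each point is a cell and each bar the median of a set, on the log2(CPM + 1) scale, for 9 genes in 35 naive, 8 mixed and 5 endoderm-only cells. The mixed and endoderm-only cells overlap for Col4a1 and Lama1, the mixed median of Gata4 lies lower, and Nanog, Sox2 and Esrrb spread from naive to endoderm-only levels.

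Core pluripotency genes lay nearer to naive levels. Of 16 tested, 2 were at least 2 log2 units lower in mixed than in naive cells, 0 were higher, and the 13 that were that much lower in endoderm-only cells had a median position of 0.18 (0.14 over 14 genes without cells 32 and 33). Pou5f1, which chose the cells, is among the 16 and among the 13, but is not 1 of the 2 lower genes. The median position without Pou5f1 was not computed. Nanog was at 118, 39.5, 46.2, 27.0, 18.9, 0.464, 49.2 and 1.08 CPM in mixed cells, against a naive lowest, median and highest of 1.47, 39.6 and 162 CPM. Endoderm-only cells had 0.401, 1.22, 1.06, 39.9 and 0.468 CPM. In 6 mixed cells Nanog was thus within the naive range, and in cells 33 and 41 below it. Gata6 and Nanog both had at least 5 reads in 7 of 8 mixed, 3 of 5 endoderm-only and 2 of 35 naive cells. Gata6 chose the cells, so in mixed and endoderm-only cells this count turns on Nanog alone.

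Sox2 was at 136, 16.5, 84.6, 63.6, 58.7, 0.116, 5.20 and 22.4 CPM, with a naive median of 82.8 CPM. Its endoderm-only values were 0.267, 0.677, 0, 17.3 and 0.468 CPM. Tdgf1 was at 1448, 379, 489, 1016, 267, 1.04, 474 and 400 CPM in mixed cells and between 233 and 2449 CPM in naive cells. All mixed cells but cell 33 lay in the naive range of Tdgf1. Fgf4, the growth factor that pluripotent cells send to the endoderm lineage, was at 145, 116, 29.3, 96.1, 0.449, 0.348, 67.6 and 45.5 CPM, with a naive median of 128 and an endoderm-only median of 0.134 CPM. Among the lower genes was Dppa2, a chromatin factor of ES cells, with a median difference of -3.37, and of -1.86 without cells 32 and 33.

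Of 22 tested genes of the naive pluripotent state, 8 were at least 2 log2 units lower in mixed cells and 0 higher, with a median position of 0.41 over 17 genes. Leaving out cells 32 and 33 gave 7 lower genes and a median position of 0.36. Esrrb, an orphan nuclear receptor, was at 197, 10.7, 98.0, 115, 147, 0.232, 86.5 and 0.361 CPM in mixed cells, with a naive median of 166 CPM. Zfp42, the marker also called Rex1, was at 874, 172, 539, 929, 722, 11.7, 774 and 204 CPM, with a naive median of 1537 and an endoderm-only median of 11.0 CPM. Every mixed cell was below the naive median of Zfp42 and above endoderm-only cells 3, 22 and 25, cell 33 only just. Tcl1, a co-activator of AKT, was at 0, 1.01, 0.266, 5.84, 16.6, 0.116, 0.867 and 0.361 CPM, with a naive median of 125 CPM. Endoderm-only cells had at most 0.702 CPM of Tcl1, and mixed cells 4, 13, 27 and 40 lay above all of them. The position of the mixed median was 0.94. At least 5 Tcl1 reads were found in 4 of 8 mixed and in 28 of 35 naive cells, so 7 naive cells also lacked it at that count.

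Klf2, a factor of the naive network, was at 60.0, 3.27, 1.07, 37.1, 1.80, 0, 102 and 1.80 CPM in mixed cells, with a naive median of 45.4 CPM. The adhesion molecule Pecam1 was at 6.53 CPM or less in every mixed cell, with a naive median of 14.8 CPM. Klf4, by contrast, had nearly equal medians, of 91.3 CPM in mixed, 114 in endoderm-only and 80.8 in naive cells. The maternal factor Dppa3 had a mixed median of 40.1 CPM, between 146 CPM in naive and 0.267 CPM in endoderm-only cells, and ran from 0.225 to 222 CPM among mixed cells. Cells 13 and 27 exceeded the naive median of Dppa3, and without cells 32 and 33 its median difference was -0.98. The other genes at least 2 log2 units lower were Nr0b1, Prdm14, Zfp57 and Jam2, of which Zfp57 was at -1.88 without these cells.

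Across all genes, mixed cells stood further from naive cells on the endoderm side than on the pluripotent side of the log2 scale. Of 1261 genes at least 2 log2 units higher in endoderm-only than in naive cells, the mixed medians stood at a median position of 0.63, with quartiles of 0.24 and 0.92. Of 1671 genes at least 2 log2 units lower in endoderm-only cells, they stood at 0.27, with quartiles of 0.05 and 0.57. The endoderm-only cells chose both gene groups, so their own position near 1 is set by that choice. Mixed medians were past the endoderm-only median for 18.5% of the first group and 4.55% of the second.

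Single mixed cells differed most on the pluripotent side. For genes higher in endoderm-only cells, the median positions of the mixed cells were 0.52, 0.78, 0.61, 0.67, 0.70, 0.74, 0.57 and 0.65. For genes lower in endoderm-only cells they were 0.11, 0.38, 0.16, 0.07, 0.15, 0.97, 0.30 and 0.37. Cell 33 was thus at 0.97 on the pluripotent side and at 0.74 on the endoderm side. Without cells 32 and 33 the positions of the mixed medians were 0.60 and 0.19. On a plain CPM scale the endoderm side lay lower, from 0.22 in cell 2 to 0.52 in cell 4, and the pluripotent side higher, from 0.20 in cell 13 to 1.00 in cell 33. On that scale 6 of the 8 mixed cells stood further along on the pluripotent than on the endoderm side, so the order of the sides depends on the scale.

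**Figure D3:**
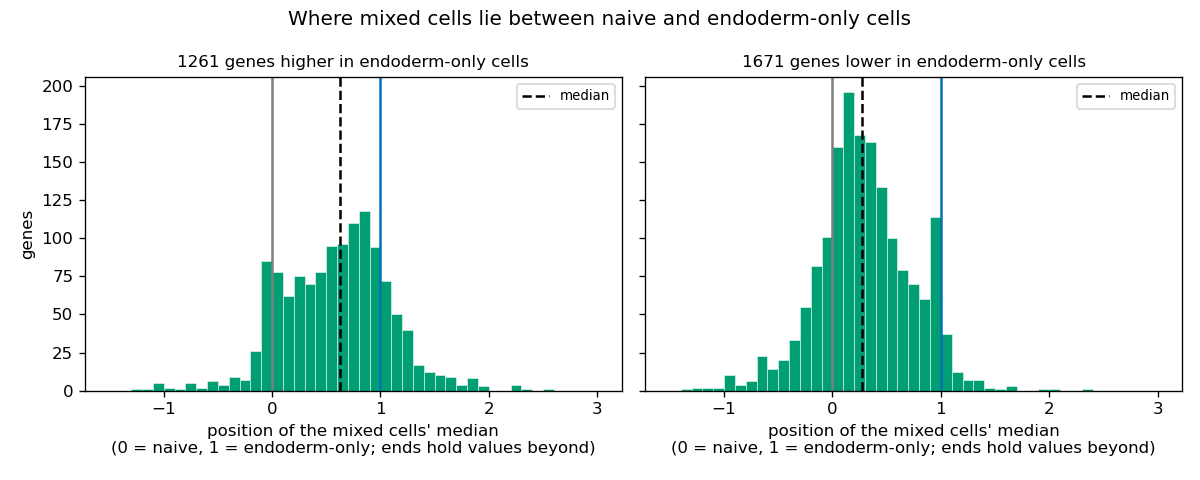
Number of genes (vertical axis) by the position of the mixed median on the log2(CPM + 1) scale (horizontal axis), for 1261 genes higher and 1671 genes lower in endoderm-only than in naive cells. Solid lines mark the naive median at 0 and the endoderm-only median at 1, and the dashed lines mark the medians of 0.63 and 0.27.

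Genes outside the span had a mixed median at least 1 log2 unit above or below both other medians. There were 948 above (8.07%) and 355 below (3.02%) among 11746 tested. The same rule put 1093 genes (9.31%) above and 1255 (10.7%) below for the naive median, and 1057 (9.00%) above and 1930 (16.4%) below for the endoderm-only median. Mixed cells thus had fewer genes outside the other sets' span than either other set, though medians of 5, 8 and 35 cells vary to different degrees. The rule also chose mixed cells by high Gata6 and by Pou5f1 reads, 1 trait of each other set. Its part in these numbers was not tested. For 368 of the 948 (38.8%) both other medians were under 1 CPM. Without cells 32 and 33 the rule found 1181 above and 304 below, of which 729 and 200 were shared with the full sets.

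A stricter rule asked that the quartiles of the mixed cells clear those of both other sets. It left 48 genes above (0.409%) and 6 below (0.0511%). Of the 48, 22 had at least 5 reads in all 8 mixed cells. The count above the span rose whichever mixed cell was left out, from 48 to between 60 (without cell 27) and 82 (without cell 2). The rise thus points at no particular cell, and the part of the smaller set in it was not tested. With an endoderm-only cell left out instead, the count was between 47 (without cell 22) and 61 (without cell 3). Without both cells 32 and 33 there were 73, of which 28 were among the 48. Below the span, 11 to 16 genes were found without mixed cell 2, 4, 6, 13, 27 or 40, in place of 6. Without mixed cell 41 there were 9, and without mixed cell 33 there were 5.

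Promoters of 4 genes above the span that had at least 5 reads in all mixed cells are printed to show what lies before genes that were read in every one of them. Rit1 has the largest distance from the span of these, Ier3 and Btg2 belong to listed signal-response genes, and Vcl was chosen after its values were seen. The 250 bases before the start are from RefSeq on GRCm38.p6, 5′ to 3′ on the strand of the gene, while the reads were counted on mm9. Capitals mark the cyclic AMP response element TGACGTCA, the CArG box bound by serum response factor, and CCAAT, each searched on both strands.
Btg2, chr1:134079156-134079405, minus strand: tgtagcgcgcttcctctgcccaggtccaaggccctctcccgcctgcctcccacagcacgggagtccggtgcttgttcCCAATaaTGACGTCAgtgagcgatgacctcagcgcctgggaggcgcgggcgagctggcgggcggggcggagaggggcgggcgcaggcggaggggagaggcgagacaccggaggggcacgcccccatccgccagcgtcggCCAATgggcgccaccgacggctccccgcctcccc
Ier3, chr17:35821463-35821712, plus strand: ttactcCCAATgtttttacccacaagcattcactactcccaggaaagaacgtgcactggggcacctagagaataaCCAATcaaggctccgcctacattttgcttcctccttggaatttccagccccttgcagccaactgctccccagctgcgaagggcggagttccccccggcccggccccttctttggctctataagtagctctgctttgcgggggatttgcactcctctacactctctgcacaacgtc
Rit1, chr3:88716604-88716853, plus strand: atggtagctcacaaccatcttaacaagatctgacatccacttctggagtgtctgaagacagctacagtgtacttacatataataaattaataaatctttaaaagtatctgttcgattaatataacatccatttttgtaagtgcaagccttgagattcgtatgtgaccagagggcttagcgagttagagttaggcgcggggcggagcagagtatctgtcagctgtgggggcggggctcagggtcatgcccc
Vcl, chr14:20929148-20929397, plus strand: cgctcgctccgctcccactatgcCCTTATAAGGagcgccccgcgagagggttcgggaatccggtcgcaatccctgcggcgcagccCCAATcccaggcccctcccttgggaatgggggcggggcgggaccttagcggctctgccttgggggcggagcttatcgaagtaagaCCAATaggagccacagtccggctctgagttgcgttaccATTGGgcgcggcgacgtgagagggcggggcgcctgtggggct

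The window of Btg2 held 1 response element, whose last base lay 158 bases from the start, and 2 CCAAT boxes. That of Ier3 held 2 CCAAT boxes, that of Vcl held 1 CArG box and 3 CCAAT boxes, and that of Rit1 held none of these letters. No matched motifs overlapped. Among 32851 promoter windows of this length in the table, 1.55% held the response element, 1.47% a CArG box, 33.8% CCAAT and 22.6% the GATA factor letters GATAA. Promoters were matched by symbol for 39 of the 54 genes with separated quartiles. Of these, 2 held the response element, 1 a CArG box, 15 CCAAT and 6 GATAA. A match describes the letters and is not a bound site.

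Rit1, a RAS-related GTPase, was at 38.2, 14.5, 61.9, 81.1, 17.4, 110, 72.2 and 48.0 CPM in mixed cells. In endoderm-only cells it was at 0.134, 0.135, 1.41, 0.696 and 1.40 CPM, and in naive cells at 0, 0.165 and 102 CPM for the lowest, median and highest. Every mixed cell lay above every endoderm-only cell, and 12 of 35 naive cells lay above the lowest mixed cell. Its mixed median was 5.03 log2 units above the nearer of the other medians, and 4.89 without cells 32 and 33. At least 5 Rit1 reads were found in 8 of 8 mixed cells and in 14 of 35 naive cells.

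The listed genes with separated quartiles above the span included Ier3 and Btg2. Ier3, an early response gene, was at 28.5, 102, 108, 209, 60.2, 283, 44.1 and 12.5 CPM in mixed cells. Endoderm-only cells had 296, 38.0, 6.70, 7.19 and 5.38 CPM, and 10 naive cells lay above the lowest mixed cell. Its distance from the span was 3.27 log2 units. It was 1.82 without cells 32 and 33, with quartiles no longer separated, and 2.15 without endoderm-only cell 25 or 38. Btg2, an antiproliferative early response gene, was at 253, 825, 360, 168, 370, 622, 292 and 297 CPM, against 62.0, 179, 287, 107 and 48.5 CPM in endoderm-only cells. Of the mixed cells, 6 were above every endoderm-only cell. In naive cells Btg2 ran from 0 to 1262 CPM with a median of 9.26, so the highest naive cell had more than any mixed cell.

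Over all genes tested, 8.07% were above the span. The lists of immediate early genes and of FGF-ERK targets held a larger share, resting on 2 genes each, and the glycolysis and hypoxia list a smaller one. Of 13 tested immediate early genes, Btg2 and Nr4a1 were above and Dusp1 below, and Fos, Fosb, Jun and Atf3 were at least 2 log2 units higher than in naive cells but inside the span. Of 12 tested targets of FGF-ERK signalling, Spred2 and Ier3 were above and Spry4 below. Dusp6, Spry4 and Myc were at least 2 log2 units lower than in naive cells, Dusp6 at -1.69 without cells 32 and 33. The median mixed minus naive difference of the FGF-ERK list was -0.37. Spry4, an inhibitor of that pathway, was at 1.26, 19.8, 0.266, 12.4, 255, 0.348, 109 and 10.8 CPM in mixed cells, with a naive median of 124 CPM. Spry4 and Nr4a1 were inside the span without cells 32 and 33, Fos was above it, and Jun was 1.67 log2 units above naive cells. Vegfa, the vascular growth factor, was at 5.90, 11.3, 33.0, 30.9, 4.04, 0.696, 48.8 and 18.4 CPM, against 6.02, 4.60, 0.588, 0.464 and 0.819 CPM in endoderm-only cells. Of 21 tested genes of glycolysis and hypoxia it was above the span and the enzyme gene Pfkm below, and without cells 32 and 33 Bnip3 was above as well.

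**Figure D4:**
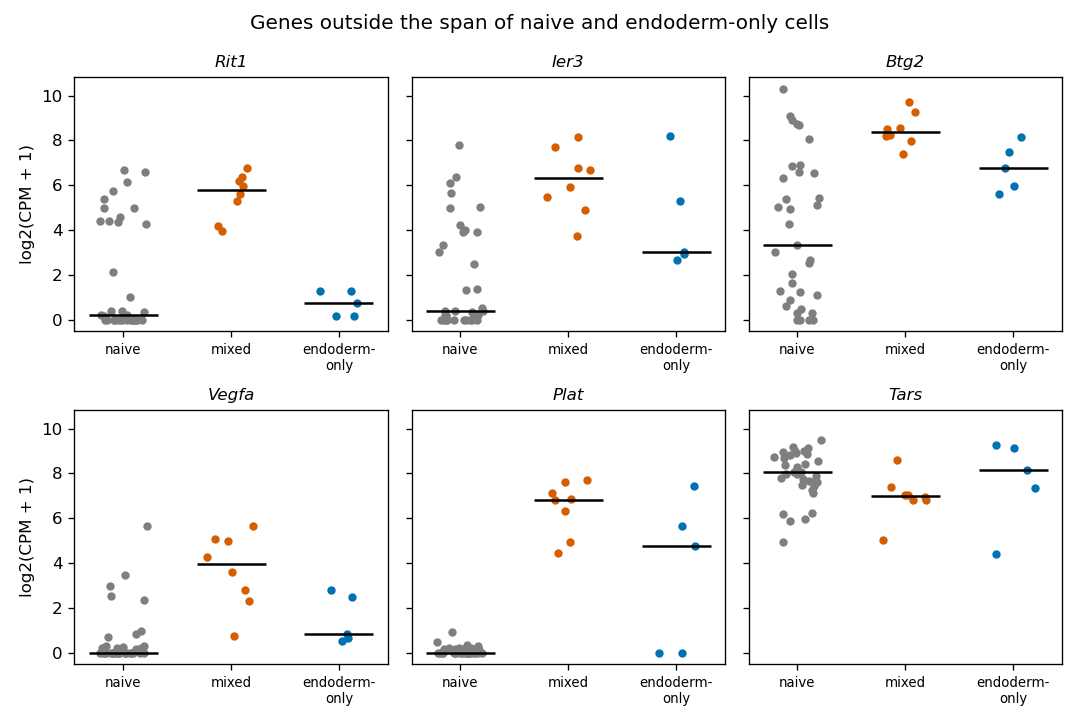
Each point is a cell and each bar the median of a set, on the log2(CPM + 1) scale, for 5 genes above and 1 gene, Tars, below the span. All mixed cells lie above the endoderm-only cells for Rit1, and naive cells overlap the mixed cells for every gene shown but Plat.

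Vcl, the adhesion protein vinculin, was at 255, 325, 102, 60.6, 305, 340, 167 and 301 CPM in mixed cells. It was at 0, 119, 146, 10.7 and 61.9 CPM in endoderm-only cells, with a naive median of 37.2 CPM. Tpm1, a tropomyosin of actin filaments, was at 179, 412, 403, 107, 519, 3235, 381 and 181 CPM, and was the 1 gene above the span among 20 annexin and actin genes. Zyx, zyxin of focal adhesions, had a mixed median of 69.8 CPM against 8.29 in endoderm-only and 0.130 CPM in naive cells. Zyx was nonetheless at 0.126 and 0 CPM in cells 2 and 6.

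Among endoderm genes, Plat, the tissue plasminogen activator, was above the span. It was at 193, 77.9, 115, 21.2, 205, 110, 29.8 and 139 CPM in mixed cells and at 49.3, 26.1, 174, 0 and 0 CPM in endoderm-only cells. The highest naive cell had 0.921 CPM, so Plat parted every mixed from every naive cell. Thbd, thrombomodulin, was at 111, 0, 150, 89.0, 87.7, 0.580, 92.0 and 379 CPM in mixed cells and at 537, 0.135, 217, 0 and 0 CPM in endoderm-only cells. Snai1, a repressor of epithelial genes, was at 54.1, 0, 0, 94.6, 66.0, 102, 53.4 and 28.9 CPM, against 107, 0.271, 0.235, 27.7 and 0 CPM. In both genes the sets overlapped, and the low endoderm-only medians rest on 3 of 5 cells.

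Nid1, which links laminin to collagen, was above the span at a mixed median of 471 CPM against 162 in endoderm-only and 2.27 CPM in naive cells. Without cells 32 and 33, Thbd, Plat, Snai1 and Nid1 were still above the span, Plod1, a collagen lysyl hydroxylase, was above it too, and Cubn and Fgfr3 were inside it. Lefty2, a Nodal inhibitor, was at 253, 51.6, 8.79, 38.6, 23.8, 0, 0.124 and 11.3 CPM in mixed cells and at 610 CPM in endoderm-only cell 32, with at most 0.535 CPM in the other 4. Nodal itself was at 1.00 CPM or less in every mixed cell, with a naive median of 8.41 CPM. Timp3, a metalloproteinase inhibitor, was above the span with a mixed median of 188 against 22.8 CPM in endoderm-only cells.

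Several of the largest distances above the span came from genes near 0 in part of the mixed cells. Vnn1, a pantetheinase, was at 2.51, 397, 0, 167, 174, 401, 139 and 0.241 CPM in mixed cells, and 1 endoderm-only cell, 38, had 1335 CPM. Mttp, which loads lipoproteins, was at 5.40, 304, 80.7, 1.34, 32.0, 5.56, 0 and 58.1 CPM, with 369 CPM in cell 38. The sphingosine phosphate transporter Spns2 was at 0 CPM in cells 33 and 40. By contrast the importin gene Ipo13 and the centrosome gene Cep120 had at least 5 reads in all 8 mixed cells, with medians of 66.2 and 27.0 CPM against 2.67 and 0.117 CPM in endoderm-only cells. Of the other named genes above the span, Zbtb38 also had at least 5 reads in all 8 cells, while Gmds, Slc12a7, Dnase2a, Agphd1 and Mcc did in 7.

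The 6 genes below the span with separated quartiles included 2 aminoacyl-tRNA synthetase genes. Tars, the threonyl-tRNA synthetase, was at 129, 168, 132, 111, 121, 31.7, 110 and 391 CPM in mixed cells, with medians of 280 CPM in endoderm-only and 263 CPM in naive cells. Every mixed cell lay within the naive range of 30.1 to 713 CPM and the endoderm-only range of 20.2 to 613 CPM of Tars. Without cells 32 and 33 Tars was still below the span, but its quartiles were no longer separated. Nars, the asparaginyl-tRNA synthetase, had a mixed median of 242 CPM against 507 and 489 CPM. Their distances were -1.07 and -1.01 log2 units, just past the threshold of 1, and Nars was inside the span without cells 32 and 33, at -0.99. Tada2a, a subunit of histone acetyltransferase complexes, was at 57.5 CPM against 148 and 246 CPM, and was also inside without these cells. Adat2, a tRNA deaminase, was near 0 in 6 mixed cells and at 66.3 and 16.1 CPM in cells 6 and 33. Rfx7 and Txlng had mixed medians of 0.512 and 1.62 CPM, though cell 2 had 32.8 CPM of Rfx7 and cell 41 had 106 CPM of Txlng. Adat2, Rfx7 and Txlng kept separated quartiles without cells 32 and 33. They also kept them with any 1 mixed or endoderm-only cell left out.

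Genes of other cell types were looked at by the same lists. Of 12 listed fibroblast genes 2 were tested, and Col3a1, Dcn, Lum, Postn and Prrx1 had 0 reads in all 48 cells. The summed level of that list was 12.7 to 1925 CPM in mixed, 0.819 to 2341 CPM in endoderm-only and 0.324 to 182 CPM in naive cells. In cell 33 most of it was Tagln, an actin-binding gene at 1923 CPM. Of the trophectoderm list, Krt8 and Krt18 were higher in mixed cells, Tfap2c and Lgals3 were lower, Lgals3 by less than 2 log2 units without cells 32 and 33, and Cdx2 had 0 reads in all cells. The mesendoderm genes T, Gsc, Cer1 and Mesp1 had 0 reads in all cells. Of 9 tested visceral endoderm genes, Cubn and Spink3 were higher, Cubn by 1.45 log2 units without cells 32 and 33, and Afp was at most 9.05 CPM in a mixed cell.

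Housekeeping lists stayed inside the span. Of 30 ribosomal protein genes, 18 of oxidative phosphorylation and 10 heat shock genes, 0 were outside it and 0 differed by 2 log2 units from naive cells. Their median mixed minus naive differences were -0.12, -0.03 and -0.28, beside 0.00 over all genes tested. Of 18 lysosomal genes, 6 were higher and 2 lower than in naive cells with none outside the span, among them the cathepsin Ctsl at 1519 against 209 CPM. The cathepsin gene Ctsc was above it without cells 32 and 33. Of 20 genes of the secretory pathway 6 were higher, and Xbp1, the unfolded protein response factor, was above the span at a mixed median of 94.7 CPM against 35.3 and 12.4 CPM. Xbp1 was low, at 8.00 and 4.95 CPM, in cells 4 and 40, and without cells 32 and 33 Sec23a, a coat protein of export vesicles, was above the span as well.

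Among other lists, the sterol genes Cyp51 and Mvd were above the span out of 14 tested. Mvd, mevalonate decarboxylase, was at 197, 106, 70.7, 10.5, 40.0, 16.5, 25.6 and 8.54 CPM in mixed cells and under 1 CPM in endoderm-only cells other than cell 32, which had 66.7 CPM. Of 15 tested imprinted genes, Sgce was above and Peg10 and Kcnq1ot1 below. The kit does not mark strand, so reads of Kcnq1ot1 and of Kcnq1, on the opposite strand, cannot be told apart. The p53 target Sesn2 was at a mixed median of 20.6 CPM against 2.94 and 0.783 CPM. Of 22 tested genes of the G2-M phase, the kinesin gene Kif20a was below the span, and of 20 G1-S genes none was outside it. Kif20a was inside and the spindle gene Tpx2 below without cells 32 and 33.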

How the data were processed

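The counts were analysed as deposited by the authors: whole-number reads per gene, 23284 gene rows by 96 lane libraries, with no normalization in the file. Per the submitters' processing notes the sources are STAR 2.3.1z12, featureCounts, Subread 1.4.5-p1 and mm9, with no role or order. Lane libraries held 2198523 to 4890845 reads. The 2 lanes of a cell were summed, counts were scaled to CPM by the cell's total, and log2(CPM + 1) was used, so fold differences of low genes are understated. Genes needed a mean of 10 reads per cell. Set values are medians.

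Genes named were, by rule, up to 15 per side of the span with separated quartiles by distance, the 10 largest of those above every naive cell, 6 at each end of the positions for genes 3 log2 units apart, and genes of 37 lists (552 of 554 listed genes had a row). Not all are described, and 1 item is not reported here. The members and the lists were chosen with earlier results of these data known. Rows with date-like names (25, with 0.660% of reads) were kept in totals and not named as genes. Without molecular identifiers, reads of copies of 1 molecule cannot be told from reads of several. The kit does not mark strand, so gene models that overlap cannot be parted; of 110 genes looked up in GENCODE M21, 102 were found and 36 shared exon bases with another gene, Col4a1 and Col4a2 with each other.

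Alternatives were TMMwsp scaling (edgeR 4.0.16 in R 4.3.3), a pseudocount of 10 CPM, no count filter, a mean of 50 reads and means for medians. Others were thinning to 4408953 reads, single lanes, and thresholds of 100 CPM of Gata6 or 100 reads of Pou5f1. Each mixed or endoderm-only cell, and cells 32 and 33 together, were also left out. The Gata6 threshold took out only mixed cell 27, and the Pou5f1 threshold only mixed cell 33. Both thus repeat a cell left out and count again among the settings. The code, in Python 3.11.15 with pandas 2.3.3, was tested on simulated data.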

Additional observations from a re-analysis of the deposited data

Results flagged for a closer look

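Within the 8 mixed cells the gap between an extreme cell and its nearest neighbour, as a share of the range, was compared with Dixon's 95% critical value for 35 list levels. Chance passes about 1 in 20 such checks, and the 8 cells are a set drawn from the data. A gap past the value was found for 3 lists, each time at cell 33. Its mean log2(CPM + 1) of core pluripotency genes was 2.20, with the other mixed cells at 5.86 to 7.35. Its level of secretory pathway genes was 8.52, with the others at 7.38 to 7.72. Its level of heat shock genes was 7.17, with the others at 8.32 to 8.95.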

How the results depend on the processing

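The median positions stayed within the spread of the mixed cells under every alternative run, at 0.55 to 0.67 for genes higher and 0.19 to 0.34 for genes lower in endoderm-only cells. With a pseudocount of 10 CPM, 372 genes were above and 105 below the span, 31 were above with separated quartiles, and 329 genes were higher and 101 lower than in naive cells. With means of log2 values for medians, 642 were above the span, 438 of them among the 948, 236 were below it, 682 higher and 264 lower. With TMMwsp scaling, 30 were above and 12 below with separated quartiles, and with a Gata6 threshold of 100 CPM 15 were below. Without cells 32 and 33 these counts were 73 above and 3 below. Leaving out 1 mixed or endoderm-only cell at a time gave 47 to 82 above and 5 to 16 below with separated quartiles, and kept the other counts within 1.5 times. Among the named genes, distances shifted by more than the SD of the mixed cells in 11 of their settings above the span, 2 below it and 12 for the difference from naive cells; none changed sign. Apart from the values' construction, the cause of these shifts was not tested. The number of cells, 8 and 5, limits every median.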
